A study of Danio rerio with 36 samples.

Results

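The 6 genes described here are regulators of the inner retinal neurons, and they were followed through the time in which Müller glia (MG) take shape in the zebrafish eye. They were picked by Ensembl identifier, and all 6 were found among the 31540 genes of the table: *atoh7* (ENSDARG00000069552), *isl1* (ENSDARG00000004023), *ptf1a* (ENSDARG00000014479), *prox1a* (ENSDARG00000055158), *vsx1* (ENSDARG00000056292), and *elavl3* (ENSDARG00000014420). The animals carried Tg(*GFAP:GFP*), in which a glial promoter drives GFP, and were raised in phenylthiourea to block pigment. Whole eyes were pooled, dissociated, and sorted into cells with GFP (MG) and cells without it (C) at 48, 60, 72, 96, 120, and 192 hours post fertilization (hpf). Both fractions thus carry the same transgene and treatment, and C is a mixture of all other cells of the eye. The label MG names the cells with GFP at every stage, although the paper dates the first specification of MG to about 60hpf. Each of the 12 groups has 3 columns of RNA-seq values.

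The inner retina holds ganglion cells, amacrine cells, horizontal cells, and bipolar cells, all made from the same progenitors that also give rise to MG. A small set of transcription factors steers a progenitor to each of these fates. *atoh7* encodes the bHLH factor that zebrafish need to make ganglion cells, and it is switched on around the last division of a progenitor. *ptf1a* encodes a bHLH factor for horizontal and amacrine cells. *isl1* encodes a LIM homeodomain factor of ganglion, amacrine, and bipolar cells, *vsx1* a homeodomain factor of bipolar cells, and *prox1a* a homeodomain factor whose mouse counterpart is needed for horizontal cells. *elavl3* encodes the RNA-binding protein HuC, a general marker of young and mature neurons.

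Outside 60hpf MG the columns held 1311849 to 8889893 reads on genes, and those of 60hpf MG 63463 to 90846. In 10 of the 12 groups the 3 columns were counted as 1 library (columns from the same RNA sample, as far as reads can tell), since their reads typically differed by no more than sampling. In 60hpf MG this is uncertain, as replicates 2 and 3 had a chi-square ratio of 1.34, where 1 is sampling alone, and were linked only through replicate 1. Outside 48hpf MG, replicates 1 and 2 of each group had ratios of 0.0704 to 0.243, so they differed by less than sampling alone gives. These pairs are thus not separate draws of reads, for a reason that was not tested. The third columns at 48hpf stood apart. The column labelled 48hpf C replicate 3 differed from 48hpf MG replicates 1 and 2 by no more than read sampling (chi-square ratios 0.683 and 0.989), and the column labelled 48hpf MG replicate 3 did the same with the 3 columns of 72hpf MG (0.865, 0.946, and 0.946). Results with these 2 columns and without them are therefore given side by side. In replicates 1, 2, and 3 of 60hpf MG the most abundant gene of the column took 33.9%, 8.30%, and 43.7% of its reads, a wider spread than read sampling gives. At that depth the columns of 60hpf MG also had ratios near 1 with columns of 96hpf C and 192hpf C, so the ratio separates little there. With 1 library in most groups, the spread between columns is technical. Levels are given as CPM, the share of a column's reads that fell on a gene, scaled to a column total of 1000000. The floor, set for each stage at 3 reads in its shallower library, was 38.0 CPM at 60hpf and 0.693 to 2.28 CPM at the other stages. Floors and intervals cover counting error only. Since these are bulk samples, fewer cells of a type and less RNA per cell cannot be told apart.

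The first question was whether these regulators differ between C and MG at each stage. *isl1*, *vsx1*, and *atoh7* lay lower in MG from 60hpf on, with every MG column under every C column at these 5 stages. With mostly 1 library per group, such lack of overlap shows only that a gap exceeds technical spread. It was also seen for *elavl3* at 120hpf, where MG was 1.07-fold lower. The share of all genes without overlap is not given. *prox1a* went both ways with stage, *elavl3* differed little, and *ptf1a* was near the floor after 48hpf. Of the 36 pairs of a gene and a stage, 34 had a value, of which 20 were at least 2-fold lower and 2 at least 2-fold higher in MG. Without the third columns at 48hpf, these became 15 lower and 1 higher, since no gene of the 6 then differed 2-fold at 48hpf. Of all genes with a value, 27.8% to 40.1% were 2-fold lower and 8.98% to 29.1% higher, depending on the stage. Without the third columns 18.3% of all genes were lower at 48hpf.

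**Figure D1:**
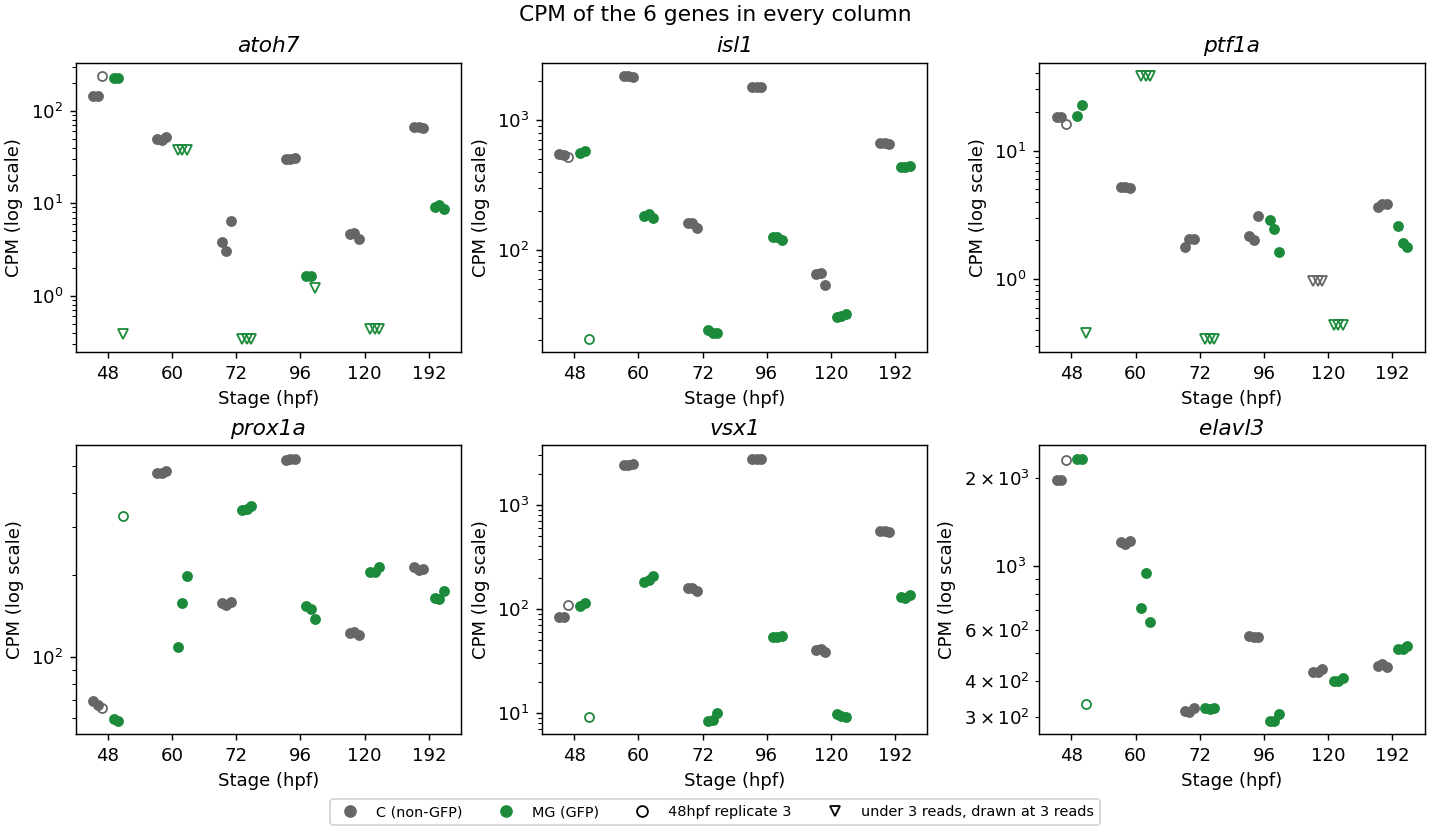
CPM of each gene (log axis) in every column by stage in hpf, for C (grey) and MG (green), with open circles for the third columns at 48hpf and open triangles for values under 3 reads, drawn at 3 reads of the shallower library of their group. For *vsx1* and *isl1* all MG columns from 60hpf on lie under all C columns of their stage, whereas for *prox1a* MG lies above C at 72 and 120hpf.

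The ganglion cell factor *atoh7* had its highest level at 48hpf. At 48hpf it was at 144, 143, and 236 CPM in the columns of C and at 227, 225, and 0 CPM in those of MG. The third C column thus sat at the level of the first MG columns, and the third MG column had no read. Between the first libraries of each fraction, *atoh7* was 1.57-fold higher in MG (log2 0.65, 95% interval 0.44 to 0.88 from an exact binomial split of the reads). With all columns the log2 of MG over C was -3.02, which rests on the third MG column, set to the 48hpf floor of 2.28 CPM.

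From 60 to 120hpf *atoh7* was at or near 0 in MG. At 60hpf C was at 49.4, 48.6, and 51.8 CPM and MG had no read, at least 1.31-fold lower against the floor of 3 reads (upper end of the 95% counting interval -0.089 on the log2 scale). At 72hpf C was at 3.82, 3.06, and 6.43 CPM and MG again had no read, at least 5.79-fold lower. At 96hpf C was at 30.2, 30.4, and 30.5 CPM and MG at 1.64, 1.65, and 0 CPM, a ratio of 27.7 with a 95% interval of the log2 from -6.92 to -3.06. At these stages the fractions did not overlap. At 120hpf C was at 4.70, 4.75, and 4.08 CPM, and MG had 1 read in 1 column and none in the others (log2 under -2.87 at the upper end of its interval). At 192hpf C was back at 67.3, 66.5, and 65.7 CPM with MG at 9.15, 9.46, and 8.68 CPM, 7.31-fold lower. In C the order of the columns' means was thus 48, 192, 60, 96, 120, and 72hpf, and only the last 2 overlapped.

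*isl1*, the LIM homeodomain gene, was high in both fractions at 48hpf. Its columns were at 544, 536, and 524 CPM in C and 560, 579, and 20.6 CPM in MG at that stage. The third MG column was the only low one. With these columns left out the 48hpf difference was 0.08 on the log2 scale (95% interval -0.04 to 0.19), and with all of them -2.30. At 60hpf *isl1* was at 2187, 2182, and 2152 CPM in C and 182, 189, and 176 CPM in MG, 11.9-fold lower on 12 to 16 reads per MG column. At 72hpf it was at 162, 160, and 146 CPM in C and 23.9, 23.0, and 22.7 CPM in MG, 6.74-fold lower. Both fractions were lower than at 60hpf, and they did not overlap.

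At 96hpf *isl1* stood at 1810, 1801, and 1792 CPM in C and 125, 126, and 119 CPM in MG, a 14.6-fold gap. At 120hpf it was at 64.8, 66.7, and 53.1 CPM in C and 30.4, 30.8, and 32.1 CPM in MG, 1.98-fold lower and so just short of the 2-fold call. At 192hpf it was at 670, 672, and 653 CPM in C and 433, 435, and 441 CPM in MG, 1.53-fold lower. The log2 there was -0.61, and -0.25 with TMM scaling, where the median of all genes was -0.36 without that scaling. The columns of the fractions did not overlap at either stage, and the last gap was the narrowest of the 5 stages from 60hpf on.

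*vsx1*, the bipolar cell factor, had the widest gap of the 6 genes where neither fraction was at the floor. At 48hpf it was at 83.5, 83.1, and 110 CPM in C and 107, 114, and 9.23 CPM in MG. Again only the third MG column was low, and without the third columns MG was 1.33-fold higher (log2 0.41, 95% interval 0.12 to 0.70), against -1.58 with all columns. At 60hpf *vsx1* was at 2448, 2444, and 2477 CPM in C and 182, 189, and 209 CPM in MG, 12.7-fold lower on 12 to 19 reads per MG column. At 72hpf it was at 159, 161, and 150 CPM in C and 8.36, 8.65, and 10.1 CPM in MG, 17.3-fold lower. C was thus lower at 72hpf than at 60hpf, and MG was far below C at both.

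At 96hpf *vsx1* was at 2778, 2779, and 2790 CPM in C and 54.1, 53.6, and 54.6 CPM in MG, 51.4-fold lower (95% interval of the log2 -5.95 to -5.44). At 120hpf the columns were at 40.7, 41.7, and 39.0 CPM in C and 9.71, 9.39, and 9.27 CPM in MG, 4.28-fold lower. At 192hpf they were at 560, 558, and 549 CPM in C and 129, 129, and 136 CPM in MG, 4.23-fold lower. The columns of the fractions did not overlap from 60hpf on.

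*prox1a*, the homeodomain gene whose mouse counterpart is needed for horizontal cells, changed sides with stage. At 48hpf it was at 69.1, 67.1, and 65.3 CPM in C and 59.7, 58.4, and 328 CPM in MG. The third MG column stood far above the others, close to the 346, 348, and 358 CPM of 72hpf MG. Without the third columns the 48hpf difference was -0.21 on the log2 scale (95% interval -0.54 to 0.13), and with them 1.06. At 60hpf *prox1a* was at 474, 474, and 479 CPM in C and 109, 158, and 198 CPM in MG, 3.07-fold lower on 9 to 18 reads per MG column. At 72hpf C was at 157, 156, and 159 CPM, so MG was 2.23-fold higher (95% interval of the log2 1.03 to 1.29, and log2 0.93 with TMM scaling, short of 2-fold). All 3 MG columns lay above all C columns there.

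At 96hpf *prox1a* was at 526, 533, and 529 CPM in C and 154, 150, and 138 CPM in MG, 3.60-fold lower. At 120hpf it was at 123, 124, and 121 CPM in C and 205, 206, and 214 CPM in MG, 1.70-fold higher. At 192hpf it was at 213, 209, and 210 CPM in C and 165, 163, and 175 CPM in MG, 1.26-fold lower, a difference that TMM scaling took to 0.03 on the log2 scale. MG was thus above C at 72 and 120hpf and below it at 60, 96, and 192hpf, each time with no overlap of the columns. In MG the 60hpf columns overlapped those of 192, 48, and 96hpf.

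*ptf1a*, the factor of horizontal and amacrine cells, had its highest level at 48hpf in both fractions. Its 48hpf columns were at 18.2, 18.3, and 16.2 CPM in C and 18.7, 22.7, and 0.340 CPM in MG. Leaving out the third columns, the log2 of MG over C was 0.18 (95% interval -0.45 to 0.86). From 60hpf on *ptf1a* stayed between 0 and 5.19 CPM in C and between 0 and 2.87 CPM in MG. Both fractions were at or under the floor at 60 and 120hpf, which leaves no value there. At 72hpf MG had 2, 2, and 0 reads and C 7 to 8 reads (log2 interval -9.64 to -1.27), whereas at 96hpf the columns overlapped and at 192hpf the difference was -0.86 on 8 to 11 reads per MG column.

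*elavl3*, the neuronal RNA-binding protein gene, was the most even of the set between the fractions. It was at 1971, 1974, and 2312 CPM in C and 2342, 2328, and 332 CPM in MG at 48hpf. In the first libraries MG was 1.18-fold higher at 48hpf, and with all columns the log2 was -1.28. From 60hpf on the log2 of MG over C lay between -0.94 at 96hpf and 0.20 at 192hpf. With TMM scaling the values at these stages were -0.49 and 0.56. At 96hpf the columns were at 566 to 570 CPM in C and 290 to 307 CPM in MG, and at 192hpf at 444 to 457 and 514 to 526 CPM. No stage after 48hpf reached 2-fold. In C the means of its 3 columns were 2086, 1203, and 316 CPM from 48 to 72hpf, and lay between 431 and 568 CPM later.

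The order of the stages differed between the genes. All orders here are of CPM without TMM scaling and were not repeated with it. The TMM factors of C were 0.62 to 0.63 at 72hpf and 0.77 to 0.78 at 120hpf, against 1.296 to 1.435 at 60, 96, and 192hpf. Scaling would raise C at 72 and 120hpf relative to those stages, so orders and overlaps can change with it. In C, from the highest to the lowest mean, it was 60, 96, 192, 48, 72, and 120hpf for *isl1*, 96, 60, 192, 72, 48, and 120hpf for *vsx1*, and 96, 60, 192, 72, 120, and 48hpf for *prox1a*, with no overlap of the columns of neighbours. For *elavl3* it was 48, 60, 96, 192, 120, and 72hpf without overlap, and for *ptf1a* 48, 60, 192, 96, 72, and 120hpf, where 96 and 72hpf overlapped. In MG the order was 192, 48, 60, 96, 120, and 72hpf for *isl1*, where the first 3 overlapped with their neighbours. With the third columns left out, 48hpf MG stood first for *isl1*, at 570 CPM and above all columns of 192hpf MG. For *vsx1* in MG the order was 60, 192, 48, 96, 120, and 72hpf, where 120 overlapped 72hpf, and 48 overlapped 96hpf only through the third column.

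**Figure D2:**
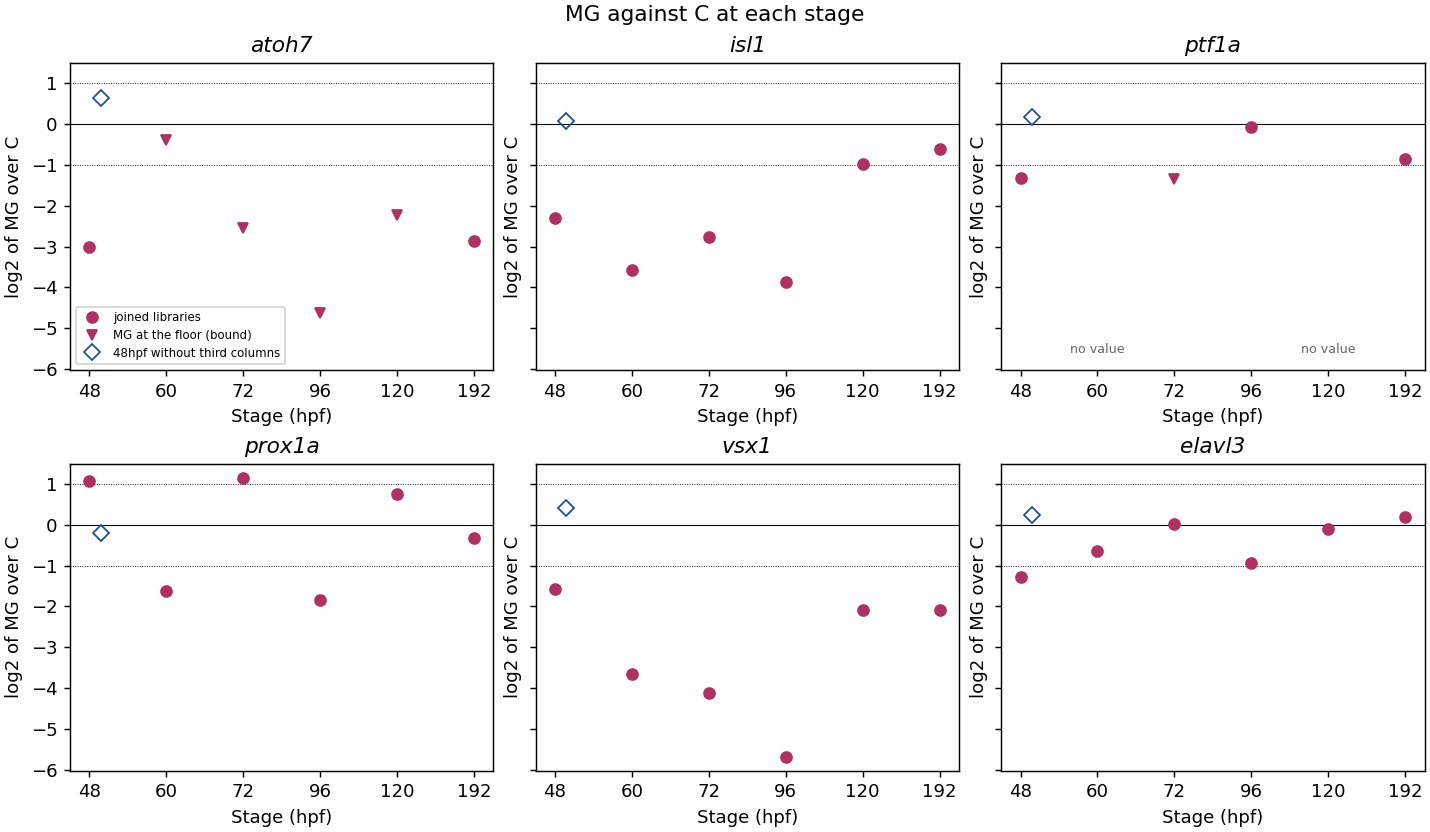
The log2 of MG over C of each gene at each stage in hpf, from joined libraries (circles) or with MG at the floor (triangles, where the true value may be lower), with the 48hpf value without the third columns as an open diamond and dotted lines at 2-fold. The 48hpf circles of *atoh7* and *ptf1a* have the third MG column set to the floor. Without the third columns all 6 genes lie within 2-fold at 48hpf, and *vsx1* at 96hpf lies lowest at -5.68.

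These counts were read against all genes with a value at the same stage. At 48hpf 5 of 6 genes were 2-fold lower and 1 higher in MG, where 28.5% of all genes were lower and 11.6% higher. Without the third columns, 0 of 6 were lower at 48hpf against 18.3% of all genes. At 60hpf 3 of 5 were lower and 0 higher (29.3% and 8.98% of all genes), and at 72hpf 4 of 6 were lower and 1 higher (28.9% and 29.1%). At 96hpf 4 of 6 were lower and 0 higher (34.7% and 9.05%). At 120hpf 2 of 5 were lower and 0 higher (40.1% and 25.4%), and at 192hpf 2 of 6 were lower and 0 higher (27.8% and 9.45%). The shares at 120 and 192hpf were thus near those of all genes. The median log2 of the genes was -1.62, -1.94, -2.86, -0.99, and -0.73 from 60 to 192hpf, and that of all genes -0.50, -0.0028, -0.64, -0.47, and -0.36. The columns were also taken as replicates, which tests the technical spread of columns, some of them closer than sampling, and not of fish. There limma gave an adjusted p under 0.05 for 17 pairs lower and 1 pair higher in MG. Of all pairs of a gene and a stage, 31.9% and 11.1% passed. Of the 17 pairs, 5 were at 60hpf, where the fit called 13433 of 18978 genes lower in MG, and 2 were *ptf1a* at 60 and 120hpf, which have no value above the floor.

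The second question was whether a gene lay apart over the whole series, with the stage as the unit. Here limma was fitted on the 6 stage differences of each gene and p-values were adjusted over 15932 genes. *vsx1*, *atoh7*, and *isl1* were lower in MG, and the call held for none of them once the third columns at 48hpf were left out. The mean log2 of *vsx1* was -3.20 ± 0.53 (SE, 6 stages, limma adjusted p = 0.00897), lower at 6 of 6 stages. That of *atoh7* was -2.61 ± 0.53 (limma adjusted p = 0.0163), lower at 6 of 6 stages, of which 4 values have MG at the floor. Its 48hpf value also has the third MG column set to the floor. That of *isl1* was -2.35 ± 0.49 (limma adjusted p = 0.0174), lower at 6 of 6 stages. Of all genes tested, 6.67% were called lower.

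Without the third columns at 48hpf, the means were -2.87 for *vsx1*, -1.999 for *atoh7*, and -1.95 for *isl1*, with limma adjusted p = 0.108, 0.144, and 0.125, and each gene was lower at 5 of 6 stages. Leaving out 48hpf MG replicate 3 alone had the same effect (limma adjusted p = 0.116, 0.135, and 0.13). In that setting 0% of all genes were called lower, with 3270 genes at an unadjusted p under 0.05 in either direction. The calls also rest on how limma moderates the variance. They were made with a variance trend on the level of each gene. With the default trend of limma, on the mean difference, no gene of the table was called, with 4865 at an unadjusted p under 0.05, and these 3 had an adjusted p of 0.053. An exact sign-flip permutation test of each gene gave p = 0.0312 for *vsx1*, *atoh7*, and *isl1*, the smallest that 6 stages allow, and 0.0625, 0.0938, and 0.0625 without the third columns.

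For the other genes no difference over the stages was called. The mean log2 was -0.90 ± 0.50 for *ptf1a* over 4 stages (limma adjusted p = 0.257), -0.46 ± 0.38 for *elavl3* over 6 stages (0.447), and -0.14 ± 0.49 for *prox1a* over 6 stages (0.875). *prox1a* was lower in MG at 3 stages and higher at 3, and its mean turned to 0.08 with TMM scaling. Without the third columns at 48hpf it was lower at 4 stages and higher at 2, with a mean of -0.35. Each fraction of a stage is mostly 1 library, so fish are not replicated within a stage. The stages are also not independent of each other. With all columns, the 48hpf value draws on the third MG column, which read sampling could not tell from 72hpf MG (ratios 0.865 to 0.946).

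**Figure D3:**
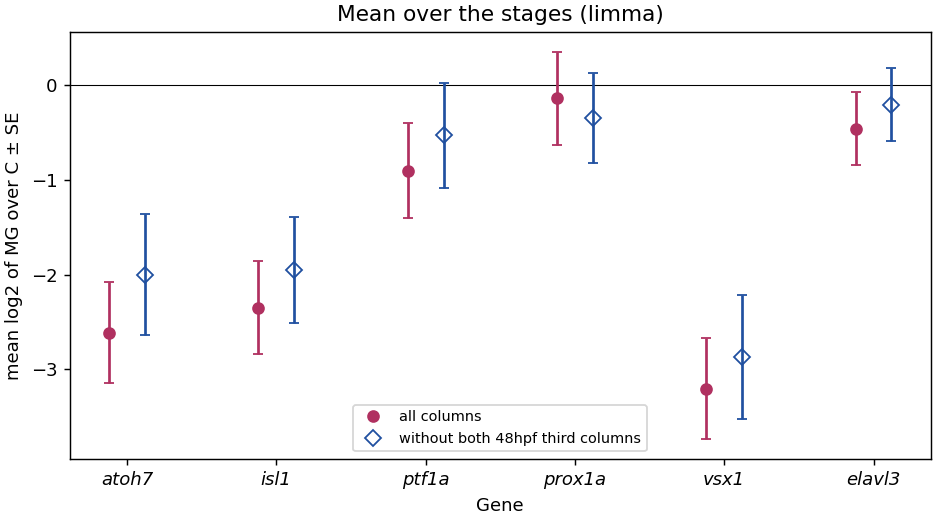
Mean log2 of MG over C over the stages for each gene, with bars of 1 SE from limma, from all columns (filled circles) and without the third columns at 48hpf (open diamonds). *vsx1* lies lowest in both, at -3.20 and -2.87, and *prox1a* and *elavl3* lie within 0.46 of 0 in both.

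The third question was whether levels rose or fell with stage. No slope of the 6 genes on log2 of the stage passed limma's test in C, in MG, or for MG minus C. In C the slopes, in log2 units for each doubling of the age, ran from -1.08 ± 0.83 for *ptf1a* and -0.98 ± 0.73 for *elavl3* to 0.28 ± 0.72 for *prox1a* (SE, 6 stages, limma adjusted p = 1). Of all genes 0.0316% passed in C. In MG, with 60hpf left out for its depth, the slopes ran from -0.27 ± 0.93 for *elavl3* to 1.02 ± 0.91 for *isl1*, and 0% of all genes passed, with 515 at an unadjusted p under 0.05. The slope of MG minus C ran from -0.71 ± 0.78 for *prox1a* to 1.02 ± 0.77 for *isl1*, and 0% of all genes passed, with 323 at an unadjusted p under 0.05.

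What the stages showed in place of a slope was an alternation, noticed after the values were seen and given without a test. It is one of CPM and was not repeated with TMM scaling, whose factors in C were lowest at 72 and 120hpf. That scaling would narrow the gaps in C, so the 2-fold differences of *isl1* and *vsx1* between 72 and 192hpf may not hold with it. In C, *atoh7*, *isl1*, and *vsx1* were at least 2-fold lower at both 72 and 120hpf than at each of 60, 96, and 192hpf, and 22.8% of all genes above the filter did the same. In MG, where 60hpf was left out, *atoh7*, *isl1*, *ptf1a*, and *vsx1* were at least 2-fold lower at 72 and 120hpf than at 96 and 192hpf, against 31.6% of all genes. Levels under 3 reads stand at their floors in these counts, and *atoh7* in MG was at its floor at 72, 96, and 120hpf, so its difference from 96hpf compares floors of libraries of unequal depth. For *vsx1* in C this meant 157 and 40.5 CPM at 72 and 120hpf, and 2456, 2782, and 556 CPM at 60, 96, and 192hpf. Summed over the pan-neuronal list, C held 1083 to 1095 CPM at 72hpf and 1053 to 1075 CPM at 120hpf, and 5650 to 5670 CPM at 96hpf. Of these sums *tubb2b* alone held 483 to 490, 325 to 333, and 3868 to 3929 CPM. The photoreceptor list in C held 361 to 369 CPM at 72hpf and 703 to 742 CPM at 120hpf, against 1744 to 1772 CPM at 60hpf. The amacrine list also fell, at 747 to 759 and 978 to 985 CPM, against 2185 to 2199 CPM at 96hpf. Of these sums *neurod4* alone held 150 to 152.8, 26.89 to 35.18, and 1412 to 1424 CPM. The progenitor list fell as well, at 77.2 to 85.4 and 104 to 105 CPM, against 327 to 346 CPM at 96hpf. The pigment cell list held 26.6 to 30.5 and 16.5 to 18.3 CPM, against 94.7 to 99.4 CPM. The ganglion, bipolar, and horizontal lists in C did not fall at both stages. The ganglion list held 9527 to 9655 and 2531 to 2586 CPM, against 404 to 409 CPM at 96hpf. There *rbpms2b* alone held 9393 to 9517, 2449 to 2506, and 145.1 to 147.9 CPM. The bipolar list held 466 to 472 and 425 to 438 CPM, against 398 to 405 CPM. Of that list *otx2* alone held 447.3 to 452.8, 369.6 to 381.9, and 177.9 to 180.7 CPM. The horizontal list held 202 to 204 and 415 to 418 CPM, against 207 to 212 CPM. The part of these shifts in the levels of the regulators was not tested.

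Across the 12 groups the log2 levels of *isl1* and *vsx1* ran closest together (Pearson r = 0.94). This is a description over 12 groups that share libraries and depth. *atoh7* and *ptf1a* were each at their floor in 4 of the 12 groups, where the level follows the depth, so no likeness is given for them. *prox1a* had r = 0.45 with *vsx1* and 0.30 with *isl1* over the 12 groups, but 0.92 and 0.68 over the 6 groups of C. Of all genes with a symbol, the one most like *isl1* was *neurod4* (r = 0.98), a proneural bHLH gene, followed by *CLVS2* and *CCNG2* (0.97 and 0.96). Those most like *vsx1* were *IRX6* (0.97, at its floor in 3 groups), *si:ch211-56a11.2* (0.96), and *GPR85* (0.96). Those most like *prox1a* were *ccdc88aa* (0.96), *CDR2L* (0.90), and *atp1a3a* (0.90). Likeness was weaker for *elavl3*, with *SLC38A3* (0.91) and *EFNA3* (0.90).

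Other genes of the inner retina were counted from lists of known markers. In the fit over the stages, 4 of 22 tested genes of the ganglion, amacrine, horizontal, and bipolar lists were lower in MG and 0 higher, with a median of the means of -1.01 against -0.43 over all genes. Over all genes tested 6.67% were lower, and without the third columns at 48hpf none of the 4 calls held (limma adjusted p = 0.101 to 0.138). The horizontal list had 3 of 4 lower, the amacrine list 1 of 7, and the ganglion list (0 of 8) and the bipolar list (0 of 3) none. These means hide opposite directions by stage. At 72hpf 8 of 8 ganglion genes were at least 2-fold lower in MG, against 28.9% of all genes. At 192hpf 0 of the 8 were lower and 4 higher, against 27.8% and 9.45% of all genes. Of the 7 amacrine genes 2 were lower and 3 higher at 72hpf (28.9% and 29.1% of all genes). Of the listed genes at least 2-fold apart in 1 direction at 5 or more stages, the 8 with the largest means were *dlc* (-4.53) and *dlb* (-3.67), which encode Delta ligands of the Notch pathway, *rlbp1a* (3.995), the retinoid carrier of MG, the horizontal cell genes *onecut1* (-3.11), *foxn4* (-3.10), and *lhx1a* (-2.60), the tubulin gene *tubb2b* (-2.74), and the proneural gene *ascl1a* (-2.47). These values are log2 of MG over C from all columns, and the lists were made with earlier results of these data known. Of these genes *dlc*, *dlb*, *onecut1*, *lhx1a*, and *ascl1a* reach 5 stages only with 48hpf. The columns of 48hpf MG ran from 0 to 82.0 CPM for *dlc*, 0.963 to 123 for *dlb*, and 0 to 474 for *onecut1*. Those of 48hpf C ran from 84.0 to 95.3, 114 to 153, and 466 to 589 CPM. The rule was not repeated without the third columns.

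The sort itself was read from markers of MG and of other cells. Of the 4 MG genes *rlbp1a*, *glula*, and *aqp4* were higher in MG over the stages (limma adjusted p = 0.00762, 0.0163, and 0.011), and *cahz* had a mean log2 of -0.64 (0.459). With the third columns left out *aqp4* kept its call (limma adjusted p = 0.0302), whereas *rlbp1a* and *glula* did not (0.0838 and 0.124). The summed CPM of the MG list was 117 to 2541 in 48hpf MG and 108 to 118 in 48hpf C, and the high end was the third column. From 72hpf on it was 2505 to 9478 in MG and 401 to 2238 in C. Most of these sums was *glula*, at 2439 to 2531 CPM in 72hpf MG and 379.9 to 386.9 CPM in 72hpf C. At 192hpf *glula* held 8302 to 8521 CPM in MG and 2097 to 2116 CPM in C. Leaving the third columns out, 0 of the MG markers with a value at 48hpf differed 2-fold between the fractions. Of the 4 photoreceptor genes tested, the rod genes *rho*, *gnat1*, and *saga* were also higher in MG over the stages, which did not hold without the third columns (limma adjusted p = 0.115 to 0.188), and *crx* had a mean log2 of -0.65. The summed photoreceptor list held 62553 to 65594 CPM in 96hpf MG against 10307 to 10682 CPM in 96hpf C, but 670 to 682 CPM in 120hpf MG against 703 to 742 CPM in 120hpf C. Most of the 96hpf sums was *rho*, at 58910 to 61980 CPM in MG and 8599 to 8995 CPM in C. *crx* went the other way at 96hpf, at 590 to 601 CPM in MG and 1089 to 1115 CPM in C. The summed pigment cell list changed sides between the last stages. It held 176 to 180 CPM in 120hpf MG against 16.5 to 18.3 CPM in 120hpf C. At 192hpf it held 57.0 to 69.1 CPM in MG against 2477 to 2495 CPM in C. A part of these photoreceptor and pigment cell reads in the differences of the 6 regulators was not tested.

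**Figure D4:**
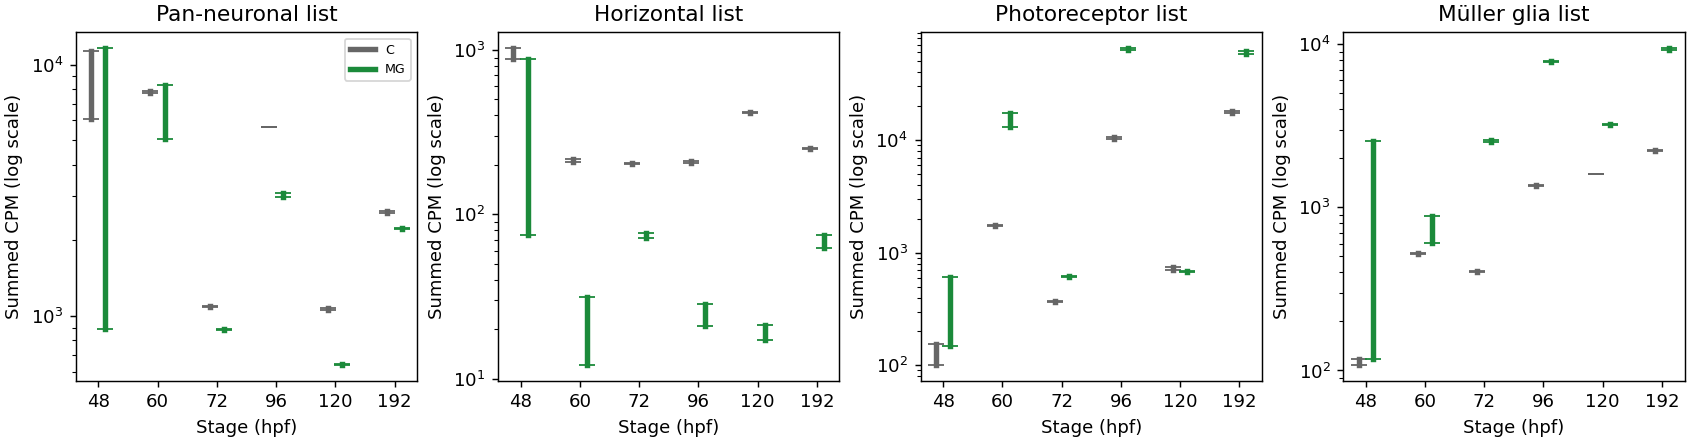
Summed CPM (log axis) of the pan-neuronal, horizontal, photoreceptor, and MG marker lists by stage in hpf, with bars from the lowest to the highest of 3 columns in C (grey) and MG (green). The long bars at 48hpf come from the third columns, and the pan-neuronal sum in C is lower at 72 and 120hpf than at 60, 96, and 192hpf.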

How the data were processed

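By the study's methods, reads were aligned with Hisat2 (Zv9 in the methods, GRCz10 in the submitters' processing notes) and counted with featureCounts. The authors deposited log2 CPM values. That these have a prior of 0.25 read and no TMM factor was inferred from the values, as the paper's methods do not state it. Library preparation used amplified cDNA (NuGEN Ovation) and Nextera. Reads were recovered by undoing the log and the prior (steps of 0.01 read). Columns of a group were joined into 14 libraries where the median chi-square ratio was at most 1.1 (over genes with 20 reads or more in both columns together), libraries of a group were averaged on the log2 scale, and CPM under the floor of 3 reads were set to it. limma 3.58.1 in R 4.3.3 (lmFit, eBayes with a trend on the mean log2 level) was run on 18978 genes that reached 1 CPM in 3 columns or more, with Benjamini-Hochberg adjustment. The covariate of that trend had not been laid down in the design, and 2 others were tried after the first fit had been seen. Other steps used Python 3.11.15 and were tested on simulated data. Same-numbered columns of C and MG did not deviate together (correlations -0.19 to 0.03), so replicate numbers were not used as pairs. The 6 genes and the marker lists were chosen with earlier results of these data known. All 6 genes are described, listed genes were named when at least 2-fold apart in 1 direction at 5 or more stages (at most 8, largest mean first), and the 3 genes most like each regulator by Pearson r (left out for *atoh7* and *ptf1a*), of which 1 is not reported here. Marker genes beyond that rule were named after their values were seen. No genome or sequence was used, so no coordinates are given. Levels were not compared between genes, as no transcript lengths were used.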

Additional observations from a re-analysis of the deposited data

Results flagged for a closer look

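The difference between MG and C of *prox1a* took opposite signs at 2 stages, with no overlap of the columns at either. Its log2 of MG over C was 1.16 at 72hpf and -1.85 at 96hpf. The difference between the stages was not tested, as each fraction has 1 library at these stages. The summed pan-neuronal and photoreceptor markers of C also differed between these stages, and their part in it was not tested.

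*elavl3* did the same at smaller size, the log2 being 0.20 at 192hpf and -0.94 at 96hpf. The difference between the stages was not tested.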

How the results depend on the processing

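The count of gene and stage pairs at least 2-fold lower in MG stayed within 1.5 times of 20 under all 44 alternatives, and was 15 to 21 when columns were left out in turn. The count of 2 higher in MG became 1 with TMM scaling, 1 without both 48hpf columns of replicate 3, 1 without joining columns, 0 at a 4-fold call, and 1 with the columns as replicates, both without and with a replicate block (17 lower in each). It was 1 to 2 when columns were left out in turn, 1 without 48hpf MG replicate 3. The block changed no count, and same-numbered columns did not deviate together.

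The 3 genes called over the stages became 0 without both 48hpf columns of replicate 3, 0 without these and 60hpf, 0 with the default trend of limma, and 1 (*vsx1*) without the 72hpf stage. The alternatives without 60hpf and these columns together, with the default trend, and with no trend (which called all 3 again) were chosen after seeing the data. Leaving out columns in turn gave 0 to 3, with 0 only without 48hpf MG replicate 3. *atoh7* lost its call without the 48hpf stage (limma adjusted p = 0.0508) and the 72hpf stage (0.0512), and *isl1* without the 72hpf stage (0.0628) and the 96hpf stage (0.0503). Over all alternatives of the fit, the adjusted p ran from 0.00605 to 0.141 for *vsx1*, 0.00462 to 0.161 for *atoh7*, and 0.0126 to 0.199 for *isl1*. The mean of *prox1a* turned to 0.075 with TMM scaling, 0.16 without the 60hpf stage, and 0.21 without the 96hpf stage. With a floor of 10 reads, *ptf1a* had too few stages for a fit over them. The causes were not tested.

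No slope was called under any alternative, and many changed sign. In C, *atoh7* turned to 0.62 without 48hpf, *isl1* to 0.0013 without 60hpf and 0.080 without 120hpf, and *prox1a* to -0.54 without 48hpf. The slope of *vsx1* in C turned to -0.013 with TMM scaling, -1.08 without 48hpf, -0.10 without 72hpf, -0.12 without 96hpf, and -0.61 without 192hpf. In MG, without both 48hpf columns of replicate 3, *atoh7* turned to -1.86, *isl1* to -0.014, and *prox1a* to 0.51. *atoh7* in MG also turned to -0.23 with a floor of 10 reads, -0.18 with a pseudocount of 1 CPM, -0.50 without joining, -0.37 without 72hpf, -2.75 without 192hpf, and -0.79 with 60hpf kept. *prox1a* in MG turned to 0.15 without joining, 0.18 without 72hpf (0.183) and without 192hpf (0.182), and 0.041 with 60hpf kept. In MG, *isl1* turned to -0.72 and *vsx1* to -0.59 without 192hpf, *ptf1a* to 1.33 without 48hpf and 0.24 without 120hpf, and *elavl3* to 0.55 without 48hpf. For MG minus C without both 48hpf columns of replicate 3, the slopes turned to -1.50 for *atoh7*, -0.0056 for *isl1*, -0.33 for *ptf1a*, -0.75 for *vsx1*, and -0.042 for *elavl3*. That of *atoh7* also turned to -0.31 with a floor of 10 reads, -0.44 without joining, -0.072 without 120hpf, -0.034 without 192hpf, and -0.48 with 60hpf kept. That of *vsx1* turned to -0.18 without joining, -0.12 without 72hpf, -0.088 without 120hpf, and -1.09 without 192hpf. With columns left out in turn, the slopes in MG ran from -1.86 to 0.18 for *atoh7*, -0.014 to 1.02 for *isl1*, -1.31 to 0.015 for *ptf1a*, and -0.040 to 0.51 for *prox1a*. Those of MG minus C ran from -1.34 to 0.12 for *atoh7*, -0.015 to 1.03 for *isl1*, -0.36 to 0.36 for *ptf1a*, and -0.67 to 0.12 for *vsx1*.

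Depth limits *atoh7* and *ptf1a* in MG, and all 6 genes in 60hpf MG.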
